A study of Rattus norvegicus with 6 samples.

Results

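A stretch of 3680 nt on the plus strand of chromosome 9 (chr9:73459241-73462920, rat build rn6) held 103 of the 12583 SYNCRIP peaks deposited for 3 libraries. Replicate 1 had 35 of its 5687 peaks there, replicate 2 had 35 of 4163 and replicate 3 had 33 of 2733. The members are all plus-strand peaks between those bounds. The stretch was chosen from these same lists, by its large number of regions with peaks in all 3 libraries. That number, and the positions, sharing and scores that follow, are therefore a description and were not tested.

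The libraries came from primary cortical neurons of Sprague-Dawley rat brain, kept for 6 days in vitro and crosslinked with UV-C at 300 mJ/cm2. SYNCRIP was precipitated from the cytoplasmic lysate with an anti-hnRNPQ antibody in 3 biological replicates. Another 3 libraries made with an IgG1 isotype control were not analysed here, and no value below has a control set beside it. Individual-nucleotide resolution crosslinking and immunoprecipitation (iCLIP) recovers short RNA fragments to which a protein was fixed by ultraviolet light. A peak is a place where such fragments pile up. The deposited files give no reads or library totals, so the depth behind each peak is unknown.

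SYNCRIP, also named hnRNP Q, is an RNA-binding protein with several RNA recognition motifs that is found in the nucleus and in the cytoplasm. In neurons it is known as a component of the granules that carry messenger RNA into dendrites, and it takes part in mRNA stability and translation. The working name of the stretch was Map2, from its position alone. Map2 encodes a microtubule-associated protein of neuronal cell bodies and dendrites, and it has a long internal coding exon that is skipped in the shorter isoforms. The RefSeq gene table of another build, GRCr8, places Map2 on the plus strand of chromosome 9. No rn6 annotation or sequence was used here and no position was carried over from another build, so no peak below is assigned to Map2 or to any exon. Positions are counted from 1 at the upstream end of the stretch, in the direction of the plus strand.

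The stretch stood alone on its chromosome strand. In all 3 libraries the nearest plus-strand peak upstream was the same 20-nt peak (71297201 to 71297220), 2162020 nt away, with scores of 75, 31 and 25. Downstream, the nearest plus-strand peak lay 6681820 nt away in replicate 1 and 11547660 nt away in replicates 2 and 3. No minus-strand peak overlapped the stretch in any library, and the nearest one was 554220, 553740 and 554220 nt away. No like distances of other clusters are set beside these, so nothing particular to the stretch is read from them. Plus-strand peaks of chromosome 9 numbered 163, 127 and 91, so the stretch held 21.5%, 27.6% and 36.3% of them. It made up 0.615%, 0.841% and 1.21% of the whole lists. The number of peaks in the stretch was thus nearly the same in the 3 libraries (34.3 ± 1.2, SD, n = 3), while the whole lists differed in length (4194 ± 1477). With the lists cut by score to an equal 2733 peaks, the stretch held 26, 30 and 33. Counts were 65, 64 and 64 in the chromosome X cluster described at the end. They were 40, 38 and 40 in that on chromosome 1, and 30, 24 and 25 in that on chromosome 2. The stretch was chosen for regions with peaks in all 3 libraries, which favours even counts.

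Peaks covered between 1380 and 1940 of the 3680 nt. Replicate 1 covered 97 of the 184 bins of 20 nt, replicate 2 covered 78 and replicate 3 covered 69, or 52.7%, 42.4% and 37.5%. The order of coverage was that of list length, and peak widths had the same order. The mean width was 55.4 nt in replicate 1, 44.6 nt in replicate 2 and 41.8 nt in replicate 3. Single-bin peaks numbered 16 of 35, 19 of 35 and 20 of 33. The share of single-bin peaks here was 53.5% ± 7.5 (SD, n = 3), whereas over the nuclear peaks of each list it was 75.6%, 77.3% and 78.4%. In the clusters on chromosomes X, 1 and 2 described at the end it was 48.7% ± 5.8, 53.3% ± 5.8 and 58.0% ± 7.2 (SD, n = 3), so the low share was common to these dense clusters. The 3 libraries had the same 240-nt peak, at 2261 to 2500, and no wider one. Replicate 1 had another of 240 nt at 3281 to 3520. List length moved with coverage and width here, and its part in them was not tested.

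Peaks followed each other closely. Every library had gaps of 20 nt, the shortest possible on this grid, at 13 of 34, 18 of 34 and 12 of 32 places. The median gap was 40 nt in replicate 1, 20 nt in replicate 2 and 50 nt in replicate 3. From one peak centre to the next, the median distance was 95, 80 and 90 nt. The longest gap was 200 nt in replicate 1, 320 nt in replicate 2 and 460 nt in replicate 3.

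**Figure D1:**
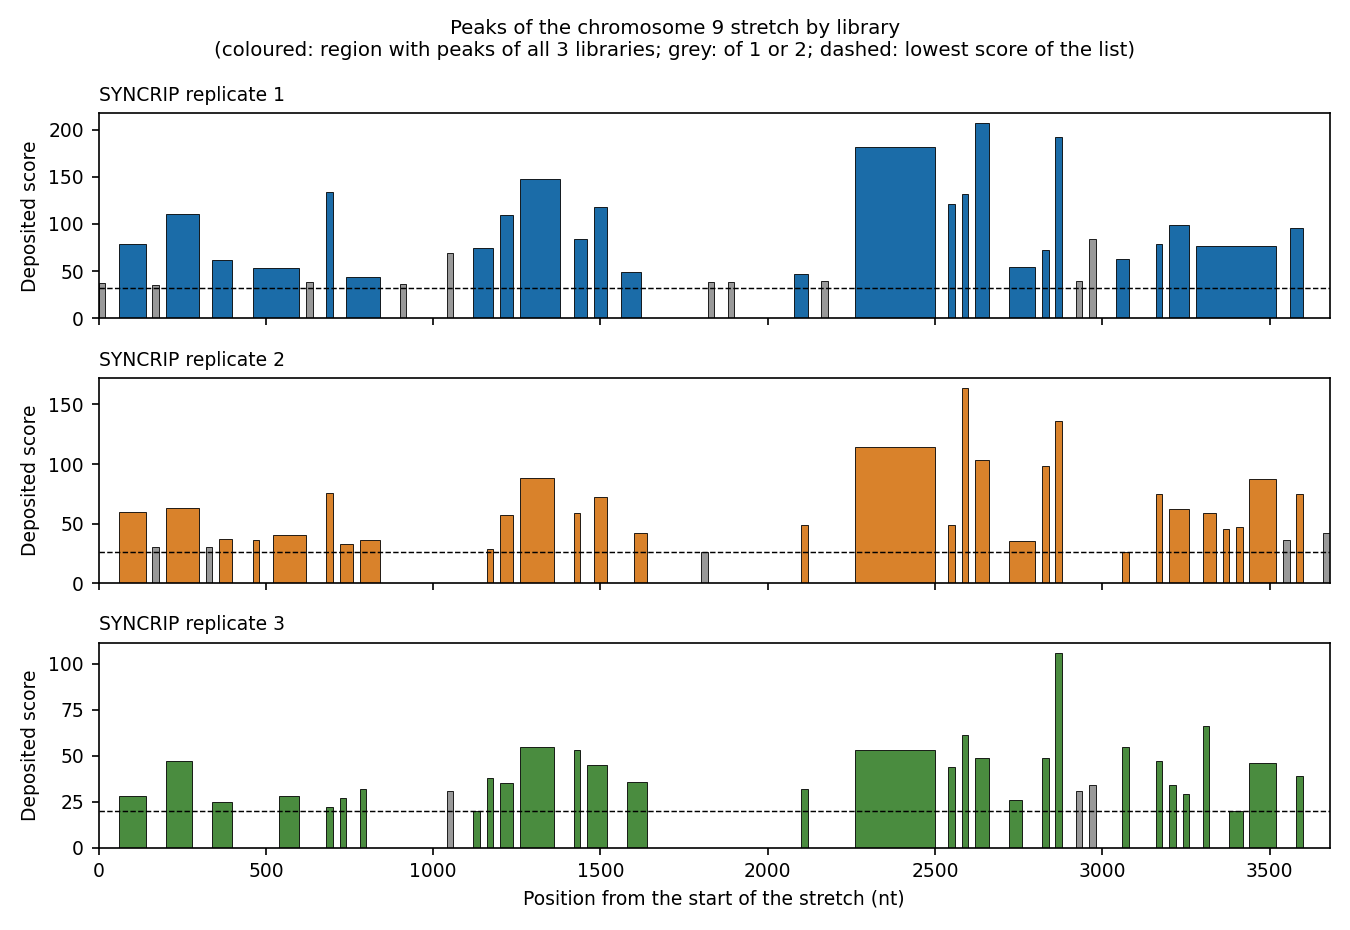
Deposited score of each peak (vertical axis, no stated unit, separate scale per library) against position from the start of the stretch (horizontal axis, nt) in the 3 SYNCRIP replicates; bar width is peak width, coloured bars belong to regions with peaks of all 3 libraries, grey bars to the other regions, and the dashed line is the lowest score of the list. The 240-nt peak at 2261 to 2500 stands at the same place in all 3 panels, and the part from 1641 to 2080 has only 3 low peaks, 2 in replicate 1 and 1 in replicate 2.

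Overlapping peaks of the 3 lists merged into 39 regions. Of these, 25 had peaks of all 3 libraries, 4 had peaks of 2 libraries and 10 had a peak of 1 library. The share with all 3 was 64.1%, and over all 7023 regions of the series it was 24.9%. Since the stretch was chosen by this count, nothing is read from the contrast. The 25 regions common to all 3 libraries, called core regions below, were spread over both ends of the stretch, with 12 in its upstream 1840 nt and 13 in the rest. They measured 20 to 240 nt, with a median of 60 nt, and 6 were a single bin.

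Bounds of the core regions were also compared between the lists. Each of the 25 core regions had at least 1 bin covered in all 3 libraries. Peaks that overlap on this grid share at least 1 whole bin, so a common bin was largely built in. In 10 of the core regions the start and the end were identical in all 3 lists. Of those 10, 6 were a single bin, where identical bounds follow from the definition of a core region. In 9 further regions the 3 lists shared the start or the end of their peak but not both. Only the 20 core regions with 1 peak in each library were compared in this way. In the other 5, at least 1 library had more than 1 peak. In the whole series, 794 of 1700 nuclear core regions (46.7%) had identical bounds, against 10 of 25 here. The peaks with identical bounds stand first in each of the 3 deposited lists, in 1 order that follows the score of replicate 3. The lists were thus sorted jointly before deposit, and whether their bounds were also set jointly was not tested.

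Counted in bins, 59 of the 184 (32.1%) were covered in all 3 libraries, 21 in 2 libraries, 25 in 1 library and 79 (42.9%) in none. Of the 105 bins covered at all, 56.2% were covered in all 3 libraries. In the clusters on chromosomes X, 1 and 2 described at the end, that share was 46.2%, 64.3% and 63.9%. Coverage of the stretch was largely nested. Replicate 1 covered 66 of the 69 bins of replicate 3 (95.7%) and 71 of the 78 bins of replicate 2 (91.03%). Replicate 2 covered 61 of the 69 bins of replicate 3 (88.4%). In replicate 1, 19 of the 97 bins were found in no other library, in replicate 2 it was 5 of 78 and in replicate 3 it was 1 of 69. Bins that the libraries did not all share lay mostly inside core regions, at their edges or between divided peaks: 15 of the 25 bins seen in 1 library, and 17 of the 21 seen in 2, were there. Within the core regions, replicate 1 covered more bins than replicate 3 in 12 cases, the same number in 12 and fewer in 1.

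The bins covered in all 3 libraries were unevenly placed. Of the 8 consecutive windows of 460 nt, the window at 2301 to 2760 had 16 of its 23 bins covered in all 3 libraries, and its other 7 bins were covered in none. The 3 libraries gave the same 16 bins there. The window just upstream, at 1841 to 2300, had the fewest, with 3 bins in all 3 libraries and 17 in none. At the upstream end, the window at 1 to 460 had 10 bins in all 3 libraries, and the remaining windows had 4 to 8. Covered bins per library ranged from 4.0 ± 1.7 in the window at 1841 to 2300 to 16 in each library at 2301 to 2760 (SD, n = 3).

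**Figure D2:**
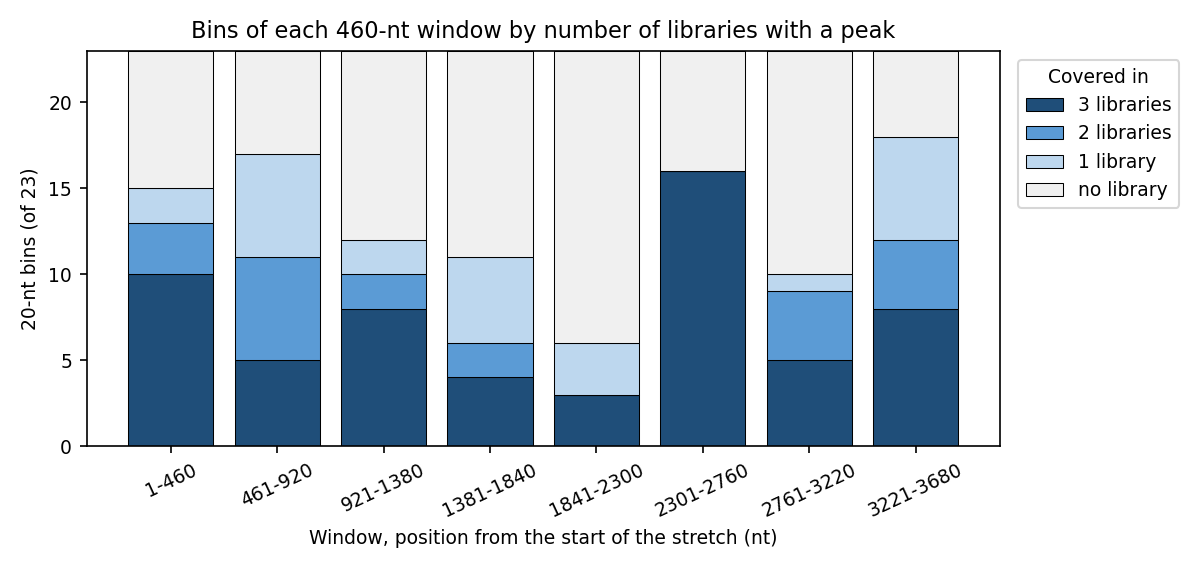
Number of 20-nt bins (vertical axis, 23 per window) covered in 3, 2, 1 or no libraries in each consecutive window of 460 nt along the stretch (horizontal axis, nt from its start). The window at 2301 to 2760 holds 16 bins covered in all 3 libraries and none covered in only 1 or 2, and the window at 1841 to 2300 holds 17 uncovered bins.

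Between 1641 and 2080 there was no core region for 440 nt, the longest such gap. It held only a peak of replicate 2 at 1801 to 1820 with a score of 26, and 2 peaks of replicate 1 at 1821 to 1840 and 1881 to 1900 with 38 each. The first of these is at the lowest score of its list, and the others are at a percentile of 29.7. No library had a peak at 1641 to 1800 or at 1901 to 2080, and at 921 to 1040 another 120 nt were empty in all 3. Over the 24 gaps between neighbouring core regions, the one of 440 nt included, the median was 40 nt. Of these gaps, 9 were of 20 nt and 4 were over 100 nt. Among those 4 was the gap between the core region that ended at 840 and the next, which started at 1121. Centres of neighbouring core regions were 40 to 500 nt apart, with a median of 120 nt.

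Scores were used only within a list, since no source says what they count. Most peaks of the stretch scored above the median of their list, 26 of 35 in replicate 1, 25 of 35 in replicate 2 and 27 of 33 in replicate 3. The score ranged from 35 to 207 with a median of 75 in replicate 1, where the whole list has a median of 45. In replicate 2 it ranged from 26 to 164 with a median of 49 against 36, and in replicate 3 from 20 to 106 with a median of 36 against 27. Expressed as the percentile of a score within its own list, the median was 85.2, 76.3 and 75.8, a mean of 79.1 ± 5.3 (SD, n = 3). This height depends on how width is treated. When each score was divided by the number of bins of its peak, the median percentile was 49.2, 44.9 and 72.2. Among peaks wider than 1 bin, 13 of 19, 12 of 16 and 12 of 13 scored below the lowest score of the list multiplied by their number of bins. Scores of wide peaks thus do not add up bin by bin from that minimum, which limits what a score per bin can mean. In the top 10% of their lists were 12, 11 and 7 of the peaks. Of the 25 core regions, 19 had their best peak above the list median in all 3 libraries. No like count over the core regions of the whole series is set beside this, so nothing is read from it.

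The highest core region was a single bin at position 2861 to 2880 (chr9:73462101-73462120). It scored 192, 136 and 106 in replicates 1, 2 and 3, a mean percentile of 98.6 ± 0.2 (SD, n = 3). It ranked 2nd, 2nd and 1st within the stretch and had the same bounds in all 3 lists. No other region was among the first 5 of the stretch in every library.

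The next regions lay just upstream of it. A single bin at 2581 to 2600 (chr9:73461821-73461840) scored 132, 164 and 61 and had a mean percentile of 96.6 ± 2.7 (SD, n = 3). It was the top peak of the stretch in replicate 2 and ranked 6th in replicate 1 and 3rd in replicate 3. The 240-nt region at 2261 to 2500 (chr9:73461501-73461740) scored 182, 114 and 53, with 95.7 ± 4.1. All 12 of its bins were covered in each library, which made it the longest run of bins shared by all 3. A 40-nt region at 2621 to 2660 (chr9:73461861-73461900) scored 207, 103 and 49, with 94.9 ± 5.2, and was the top peak of replicate 1. These 3 regions also had identical bounds in the 3 lists. With the single bin at 2541 to 2560, which scored 121, 49 and 44, and the first 2 bins of the region at 2721, they hold all 16 covered bins of the window at 2301 to 2760. That window ends inside the region at 2721 to 2800. Replicates 1 and 2 covered this region up to 2800 and replicate 3 only up to 2760, so the bin-by-bin agreement stops at the window edge.

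Only 1 of the 6 highest regions was in the upstream part. It spanned 1261 to 1380 (chr9:73460501-73460620) and scored 148, 88 and 55, with a mean percentile of 94.7 ± 2.9 (SD, n = 3). The peak was 120 nt wide in replicate 1 and 100 nt wide in the other libraries. Near the downstream end, the 240-nt region at 3281 to 3520 (chr9:73462521-73462760) had a mean percentile of 92.01 ± 5.05 for its best peak in each library. The 3 libraries divided this region differently. Replicate 1 had 1 peak over all 240 nt with a score of 77. Replicate 2 had 4 separate peaks with scores of 59, 45, 47 and 87, and replicate 3 had 3 with scores of 66, 20 and 46. Shared by all 3 libraries were 6 of its 12 bins, among them those at 3441 to 3520.

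The remaining wide regions had lower mean percentiles. A region is described here if a peak of at least 60 nt lay in it in any library. At 61 to 140 all 3 libraries had the same 80-nt peak, which scored 79, 60 and 28. The region at 201 to 300 scored 111, 63 and 47, and its peak was 100 nt wide in replicates 1 and 2 and 80 nt wide in replicate 3. At 341 to 400 the scores were 62, 37 and 25. These 3 regions make up the upstream window with 10 shared bins.

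Further downstream, several wide peaks of replicate 1 met narrower or divided ones in the other libraries. Between 461 and 620 replicate 1 had a 140-nt peak with a score of 53. Replicate 2 had 2 peaks there, with scores of 36 and 40, and replicate 3 had a 60-nt peak with a score of 28. The region at 721 to 840 was a single peak with a score of 44 in replicate 1. It was 2 peaks in each of the other libraries, with 33 and 36 in replicate 2 and 27 and 32 in replicate 3, and only 1 bin was common to all 3.

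At 1121 to 1180 replicate 1 scored 75 over 60 nt and replicate 2 scored 29 over 20 nt. Replicate 3 had 2 peaks there with scores of 20 and 38. The region at 1461 to 1520 scored 118, 72 and 45 and was widest in replicate 3. At 1561 to 1640 the scores were 49, 42 and 36, and the peaks of replicates 1 and 2 had only 1 bin in common. The region at 2721 to 2800 had the lowest mean percentile of all core regions (54.0 ± 11.8, SD, n = 3), with scores of 54, 35 and 26. At 3201 to 3260 replicates 1 and 2 scored 99 and 62, and replicate 3 had 2 peaks with 34 and 29.

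The libraries did not rank the core regions alike throughout. Over the 25 core regions, Spearman's rho of the within-list percentile was 0.75 between replicates 1 and 2, 0.48 between replicates 1 and 3 and 0.58 between replicates 2 and 3. Pearson's r was 0.55, 0.36 and 0.24 for the percentiles and 0.72, 0.54 and 0.66 for the scores themselves, so the order of the pairs differs between the scales. These coefficients describe regions of the same stretch in the same libraries, and they carry no p-value. The percentiles of a region spanned a median of 12.3 points from its lowest to its highest library. In 10 regions the span was under 10 points and in 5 it was over 30.

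The widest spans came from single libraries. At 3041 to 3080 the percentile was 77.5 in replicate 1 and 91.7 in replicate 3, but 3.59 in replicate 2, where the score of 26 equals the lowest of the list. At 681 to 700 replicates 1 and 2 scored 134 and 76 (percentiles of 96.9 and 92.5), and replicate 3 scored 22, with a percentile of 22.3. At 1121 to 1180 replicate 2 had a percentile of 21.8, against 85.2 in replicate 1 and 78.9 for the better peak of replicate 3. The other peak of replicate 3 there scored 20, the lowest score of its list. In each of these cases the region counts as core although the best peak of 1 library was near the low end of its list.

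**Figure D3:**
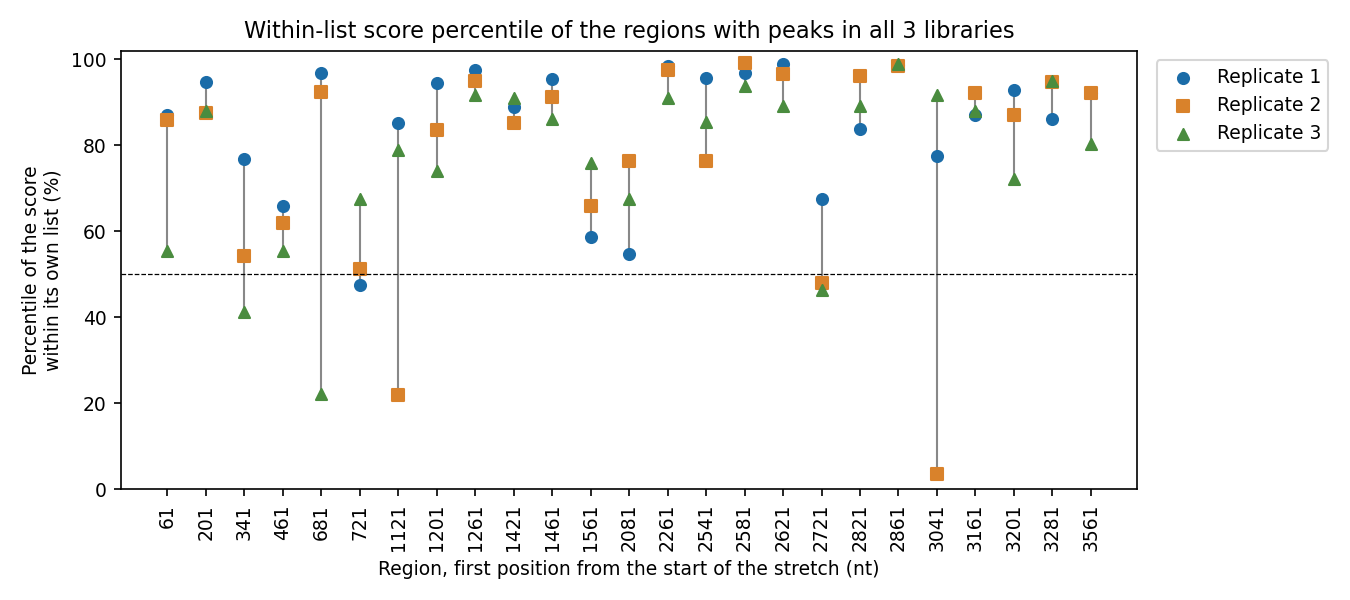
Percentile of the score within its own list (vertical axis, best peak of the region) in replicates 1, 2 and 3 for the 25 regions with peaks in all 3 libraries, ordered by their first position in the stretch (horizontal axis, nt); grey lines join the lowest and the highest library and the dashed line is the list median. The region at 2861 is close to the top in all 3 libraries, and those at 681, 1121 and 3041 have 1 library far below the others.

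All 14 regions that were not in every library were a single bin. They lay 0 to 180 nt from the nearest core region, with a median of 50 nt, and 3 of them touched one. Replicate 1 alone had 6, at 1 to 20, 621 to 640, 901 to 920, 1821 to 1840, 1881 to 1900 and 2161 to 2180. Their scores were 37, 38, 36, 38, 38 and 40, or percentiles of 21.8 to 35.9 in a list that begins at 32 and has a median of 45. Replicate 2 alone had 4, at 321 to 340, 1801 to 1820, 3541 to 3560 and 3661 to 3680, with scores of 30, 26, 36 and 42, or percentiles of 26.8, 3.59, 51.2 and 65.9. No region was found in replicate 3 alone. The outermost regions of the stretch, at 1 to 20 and at 3661 to 3680, were thus each found in 1 library.

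Regions with peaks in 2 libraries numbered 4. At 161 to 180 replicate 1 scored 35 and replicate 2 scored 30. The other 3 were missing from replicate 2. At 1041 to 1060 the scores were 69 in replicate 1 and 31 in replicate 3, and at 2921 to 2940 they were 40 and 31. At 2961 to 2980 they were 84 and 34, percentiles of 88.9 and 72.1, which is the highest-ranking place of the stretch without a peak in every library. Depth being unknown, a missing peak does not show that the place was unbound in that library.

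Sharing of peaks, with at least 1 bp in common, was next set beside that of other clusters. Of replicate 3 peaks in the stretch, 97.0% (32 of 33, 95% Wilson interval 84.7 to 99.5) were matched in replicate 1 and 87.9% (29 of 33, 72.7 to 95.2) in replicate 2. Of replicate 2 peaks, 88.6% (31 of 35, 74.0 to 95.5) were matched in replicate 1 and 80.0% (28 of 35, 64.1 to 89.96) in replicate 3. For replicate 1 the shares were 74.3% (26 of 35, 57.9 to 85.8) with replicate 2 and 80.0% (28 of 35, 64.1 to 89.96) with replicate 3. These intervals cover counting error only and treat neighbouring peaks as independent. The mean over the 6 ordered pairs was 84.6%, and over nuclear peaks outside the stretch it was 60.5%. The stretch was chosen for its shared regions, so a higher share was built in.

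Clusters on chromosomes X, 1 and 2, the other 3 with the most core regions, were picked from the lists by the same count. Their mean shares were 77.5%, 90.2% and 81.3%, so the stretch lay among them. Core regions per 1000 nt were 6.79 in the stretch, 4.63 on chromosome X, 8.47 on chromosome 1 and 5.70 on chromosome 2. Bins without a peak in any library made up 42.9% of the stretch and 30.6%, 28.8% and 44.3% of those clusters. The median percentile of scores was 79.1 ± 5.3 in the stretch, 72.1 ± 5.3 on chromosome X, 82.5 ± 5.0 on chromosome 1 and 69.9 ± 4.3 on chromosome 2 (SD, n = 3 libraries). None of these differences was tested, because all 4 clusters were chosen from the same lists.

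**Figure D4:**
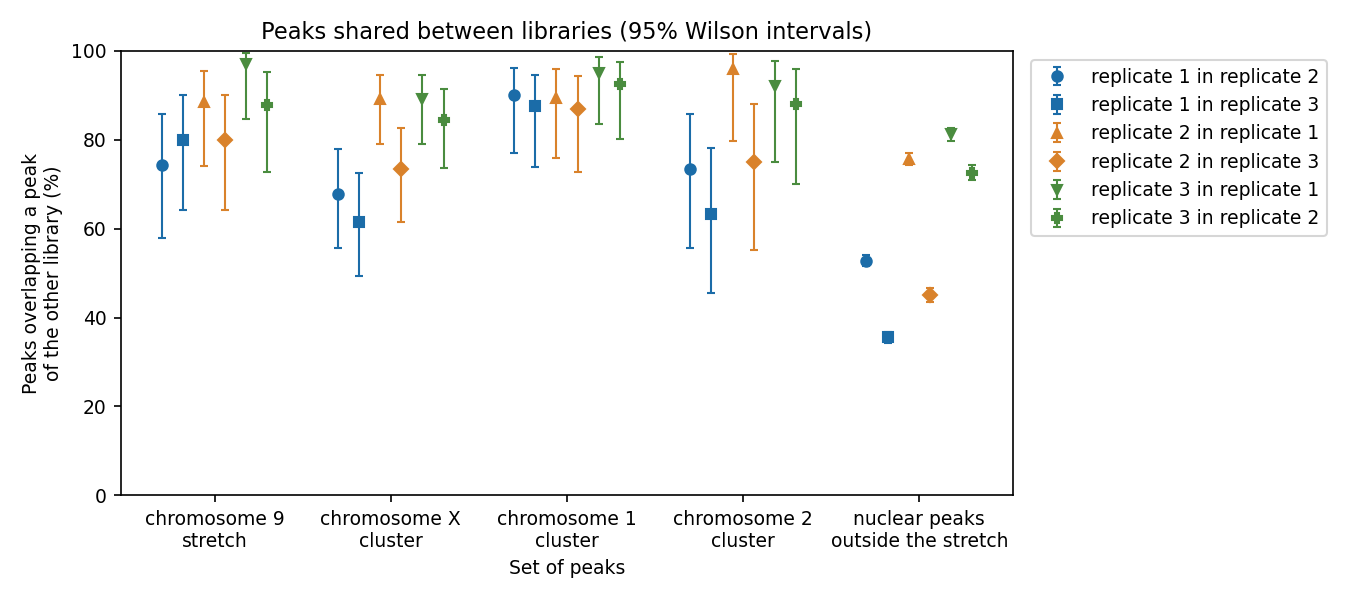
Share of the peaks of one library that overlap a peak of another (vertical axis, %) for the 6 ordered pairs of libraries, in the stretch, in the 3 other clusters and in the nuclear peaks outside the stretch (horizontal axis); colour marks the library whose peaks are counted and bars are 95% Wilson intervals. In the stretch the shares run from 74.3% to 97.0%, and outside it from 35.6% to 81.2%.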

How the data were processed

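Per the submitters' processing notes, reads were aligned with STAR to rn6; per the names of the deposited files, Piranha called peaks in each library in bins of 20 nt. Piranha keeps bins with more reads than a fitted background. Its threshold, the handling of PCR copies and any use of the IgG libraries are not given in the labels or files used here. The deposited lists hold position, strand and a whole-number score per peak, with no unit stated. One malformed entry of replicate 1 was left out. Members and comparisons were chosen with earlier results of these data known.

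Peaks overlapping by at least 1 bp on one strand were merged into regions, book-ended peaks staying apart. A percentile is the share of a list's scores below a score, with ties counted at their midpoint. Described in full were the 6 core regions of highest mean percentile, those with a peak of at least 60 nt, and those with a peak in 1 library. The other clusters join regions of one strand that lie up to 200 nt apart. Merging and overlap counts were checked on made-up peaks. Base composition and sequences were not analysed here, for want of an rn6 genome. Python 3.11.15 and scipy 1.17.1 were used.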

Additional observations from a re-analysis of the deposited data

How the results depend on the processing

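The stretch has no test, so alternatives, all planned, show only how its values move. Leaving out 1 replicate gave 26 to 28 core regions (25 as reported), 34.0 to 35.0 peaks per library, a mean share of 81.4% to 88.5%, 61 to 71 bins covered in all remaining libraries and a median percentile of 76.1 to 80.7. Core regions numbered 16 when peaks scoring under 1.5 times the lowest value of their list were dropped, 10 with identical coordinates, 12 when peaks up to 20 nt apart were joined, which fuses neighbouring regions, and 13 in the longest part left by chaining over at most 100 nt (2081 to 3680), which held 17.3 peaks per library. A reciprocal overlap of 50% left 19 core regions and a mean share of 70.0%. With identical coordinates the mean share was 44.7%. Cutting the lists by score to equal length gave 29.7 peaks per library and 22 core regions. The mean share was then 88.4%, and 56 bins were covered in all libraries. The median percentile was 55.5 for the score per bin and 84.7 among nuclear single-bin peaks; the cause was not tested. The count of 25 core regions was the same when chaining over up to 1000 nt and when ignoring strand. Neither setting could change it, since the nearest other plus-strand peak was 2162020 nt away and no minus-strand peak overlapped the stretch. No paired analysis was possible because only one group, SYNCRIP, had peak lists here. Base composition was not run, for want of an rn6 genome. Depth is unknown.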
